A study of Mus musculus with 2 samples.

Results

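Foxf2 binding was examined at 4 genes of paired-class homeobox transcription factors of the craniofacial mesenchyme, Prrx1, Prrx2, Alx1 and Alx4, out of 22238 protein-coding gene symbols annotated on mm9. A peak belonged to a gene if its centre lay inside the gene, or if the closest start site of any protein-coding transcript was one of that gene's and lay within 100 kb. By this rule 4 of the 9165 Foxf2-FLAG peaks belonged to the 4 genes. Prrx1 had 2, Prrx2 and Alx1 had 1 each, and Alx4 had none.

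The peaks came from 1 chromatin immunoprecipitation (ChIP-seq) library made with an anti-FLAG antibody from palatal shelves, the outgrowths of the upper jaw that fuse into the palate. The mice carried a 3xFLAG tag on the endogenous Foxf2 protein, and the embryos were Foxf2FLAG/FLAG at E13.5 (embryonic day). Shelves were pooled from 50 pairs, and the control was 1 input library of the same genotype and stage, sequenced without immunoprecipitation. The ChIP library held 26849463 tags. The input total, about 19230000, is an estimate from the listed ChIP tags before and after their scaling to input depth. There was no replicate of either library, so no spread between replicates could be set beside any peak. The samples used here include no untagged control, and RNA levels were not analysed here, so expression of the 4 genes in these shelves was not checked.

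Paired-class homeodomain proteins recognise a short TAAT core and can bind as dimers to mirrored copies of it. Prrx1 and its paralogue Prrx2 are expressed in limb and craniofacial mesenchyme and act partly redundantly, and loss of Prrx1 in mice includes cleft palate among its defects. Alx1 and Alx4 act in frontonasal and cranial mesenchyme, and mutations of both underlie forms of frontonasal dysplasia in humans. Foxf2 is a forkhead factor whose loss in mice also gives cleft palate.

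The stretches below were chosen because they separate the peaks into those with a forkhead sequence and those without. All are on mm9, plus strand, 5′ to 3′. A forkhead word was GTAAACA or ATAAACA or GTAAATA or ATAAATA on either strand, so that TGTTTAC and TGTTTAT and TATTTAC and TATTTAT are the same words read from the other strand. The first 4 sequences show the forkhead words in capitals. They begin with part of the intronic Prrx1 peak (chr1:165218229-165218525). Next are parts of the 2 larger peaks downstream of Alx1, which lie beyond the 100 kb limit (chr10:102344250-102344534 and chr10:102342700-102342899). A weaker peak beside them, without a forkhead word, is not printed. Then comes the centre of a peak between Prrx1 and its neighbour Gorab (chr1:165289223-165289422). The last 3 are 30-base stretches of the peaks within 1 kb of a start of Prrx1 (chr1:165242705-165242734), Prrx2 (chr2:30700788-30700817) and Alx1 (chr10:102491303-102491332). In these the capitals mark CCGCCC or its reverse complement, the GC-box core of SP and KLF factors.
Prrx1 intron: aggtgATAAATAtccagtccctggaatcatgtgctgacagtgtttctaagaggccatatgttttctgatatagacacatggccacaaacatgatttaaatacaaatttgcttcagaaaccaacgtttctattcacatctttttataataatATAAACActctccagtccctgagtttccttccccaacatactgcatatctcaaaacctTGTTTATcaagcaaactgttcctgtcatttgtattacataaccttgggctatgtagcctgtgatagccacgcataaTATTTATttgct
Alx1 +147 kb: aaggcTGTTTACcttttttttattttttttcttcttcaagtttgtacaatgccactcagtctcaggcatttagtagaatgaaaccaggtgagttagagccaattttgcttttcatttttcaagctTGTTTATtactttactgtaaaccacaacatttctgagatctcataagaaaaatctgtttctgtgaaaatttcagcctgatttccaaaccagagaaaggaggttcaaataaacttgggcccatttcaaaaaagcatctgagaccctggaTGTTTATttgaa
Alx1 +149 kb: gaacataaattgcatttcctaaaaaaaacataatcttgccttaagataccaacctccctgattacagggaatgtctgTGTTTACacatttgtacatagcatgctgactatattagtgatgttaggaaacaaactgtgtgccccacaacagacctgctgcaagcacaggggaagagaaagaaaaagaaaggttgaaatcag
Prrx1 to Gorab: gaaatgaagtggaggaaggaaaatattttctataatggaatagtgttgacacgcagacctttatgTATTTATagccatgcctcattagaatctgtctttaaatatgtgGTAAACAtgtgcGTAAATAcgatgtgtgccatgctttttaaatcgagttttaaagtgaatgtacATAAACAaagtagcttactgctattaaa
Prrx1 first exon: ctgtccaagcggCCGCCCagcgccggttgc
Prrx2 second start: caggggcgaggtCCGCCCcgacaaggggcg
Alx1 start: ggagggagcagtGGGCGGgagtagggaggg

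Prrx1 (ENSMUSG00000026586.8, chr1:165175247-165243841, minus strand) had the strongest of the 4 peaks. It lay at chr1:165242565-165243065, 984 bp downstream of the nearest of 4 annotated starts, and its centre was in the 5′ untranslated part of the first coding exon. The peak held 44 ChIP tags (exact 95% Poisson interval 32 to 59.1) against 3 input tags, and its deposited fold over input was 10.51 (exact 95% interval 3.37 to 52.9). Its score, the peak caller's own value as deposited by the authors, was 45, and 83.1% of all peaks scored lower. By ChIP tags it stood lower in the list, above 67.8% of peaks. The start that RefSeq gives for Prrx1, located on mm9 by an exact match of its promoter sequence, lay 716 bp outside the peak.

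The second Prrx1 peak was intronic and near the lower limit of the list. It lay at chr1:165218086-165218586, 25.5 kb into the gene from the outermost start and 1.02 kb downstream of the start of a shorter annotated transcript. It had 17 ChIP tags (9.9 to 27.2) and 1 input tag, a fold of 12.18 (1.91 to 509), with a score of 19 where the lowest score in the list was 17. Only 8.55% of peaks had fewer ChIP tags. The tag intervals of the 2 Prrx1 peaks, which are equally wide, did not overlap.

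Prrx2 (ENSMUSG00000039476.6, chr2:30690492-30736761, plus strand) had 1 peak, at chr2:30700558-30701058. Its centre was 229 bp downstream of the second annotated start and 10.3 kb downstream of the first, again in a 5′ untranslated part. The RefSeq start of Prrx2, placed in the same way, fell inside the peak. The Prrx2 peak had 22 ChIP tags (13.8 to 33.3) and 1 input tag, a fold of 15.76 (2.55 to 650), and scored 20. No peak was listed at the outermost start, which opens the other annotated coding transcript.

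Alx1 (ENSMUSG00000036602.6 and ENSMUSG00000092348.1, 2 models of 1 gene, chr10:102470481-102491685, minus strand) had 1 peak by the rule, at chr10:102491078-102491578. Its centre was 83 bp downstream of the nearest of 4 annotated starts, in the 5′ untranslated part of an exon. It had 20 ChIP tags (12.2 to 30.9) and 1 input tag, a fold of 14.33 (2.29 to 594), and scored 23. The tag interval of this peak and that of Prrx2 overlapped almost wholly. The first-exon peak of Prrx1 had more tags than either, and its interval overlapped that of Prrx2 but not that of Alx1.

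Alx4 (ENSMUSG00000040310.6, chr2:93482541-93521496, plus strand) lay in a long stretch without listed peaks. The nearest on either side were 308 kb upstream, at a start of Tspan18 (17 ChIP tags, score 17), and 341 kb downstream, in Alkbh3 (35 tags, score 21). The stretch between them measured 648 kb and held 6 whole genes, Accs, Accsl, Alx4, Cd82, Ext2 and Gm10803. Of 9144 stretches between neighbouring peaks 10.1% were at least as long, and the median was 131 kb. These values count stretches, and a longer stretch holds more sequence, so 10.1% is not the share of genes in such stretches. Of 22238 protein-coding genes, 16920 had no peak by the rule, Alx4 among them. The list holds only regions past the caller's limits, so weaker binding at Alx4 was not detectable in it.

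**Figure D1:**
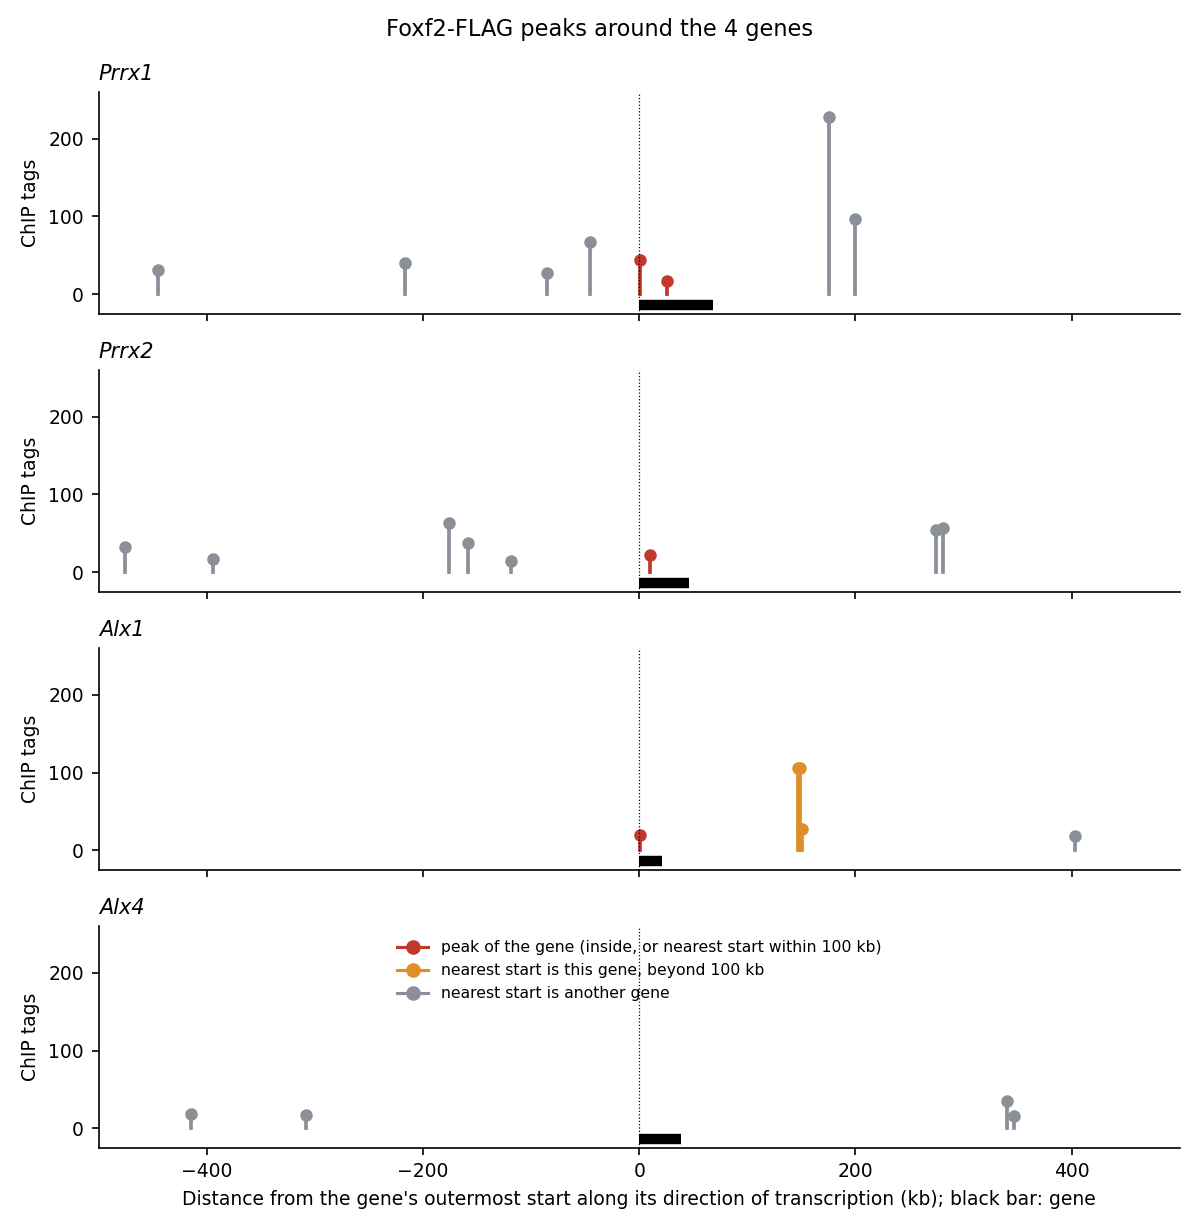
Peaks within 500 kb of the outermost start of each gene, with distance in kb along the direction of transcription on the x axis and ChIP tags per peak on the y axis; red marks peaks of the gene, orange peaks nearest to it but beyond 100 kb, grey peaks nearest to another gene. The 3 orange peaks of Alx1 stand together near 150 kb downstream, and the peaks nearest to Alx4 are 308 and 341 kb away.

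A peak belonged to 3 of the 4 genes, against 5318 of 22238 protein-coding genes (23.9%). At least 2 peaks belonged to 1 of the 4, against 6.84% of all genes. A peak centre within 1 kb of an annotated start was found at 3 of the 4, against 11.3%. Prrx1 and Alx1 had 4 annotated starts each and Prrx2 had 2, and none of these shares was matched for the number of starts. The 1 kb distance was chosen after the positions were seen, and it runs between the 2 Prrx1 peaks. The first-exon peak, at 984 bp, is just inside it, and the intronic peak, at 1.02 kb from a start, is just outside. With 4 genes, chosen with earlier results known, no test of these counts was made.

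The length of sequence in which a peak would be given to a gene differed between them. It was 169 kb for Prrx1, 48.6 kb for Prrx2, 206 kb for Alx1 and 79.9 kb for Alx4. Among genes with surroundings within 20% of that length, 43.5% had a peak for Prrx1, 16.4% for Prrx2, 48.9% for Alx1 and 26.1% for Alx4. In each of the 4 comparisons, genes without a peak outnumbered those with one.

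By best score the genes ranked in the order Prrx1, Alx1 and Prrx2. Prrx1 was 1038th, Alx1 3247th and Prrx2 3820th of the 5318 genes with a peak. The median score of the 4 peaks was 21.5 against 25 for all peaks, and their median ChIP tag number was 21 against 30. All 4 were 500 bp wide, the caller's unit of width, as were 65.4% of all peaks. Per base, the ChIP library covered them 6.55 times (Prrx1 first exon), 3.28 times (Prrx2), 2.98 times (Alx1) and 2.53 times (Prrx1 intron) as densely as the genome mean. The input covered them 0.624 times as densely in the first and 0.208 times in the other 3, where a single input tag was counted. With so few ChIP tags a peak passes the 10-fold limit only if input tags are few, so these low input densities follow from the filter.

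The folds of these peaks rest on very few input tags. With 1 more input tag each, all 4 would fall below the 10-fold that the authors required, and so would 70.1% of the whole list. The authors' Poisson p-values against input ran from 8.32e-10 at the Prrx1 intron to 4.13e-21 at the Prrx1 first exon. The intervals given here cover counting error only, since there was 1 library of each kind.

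**Figure D2:**
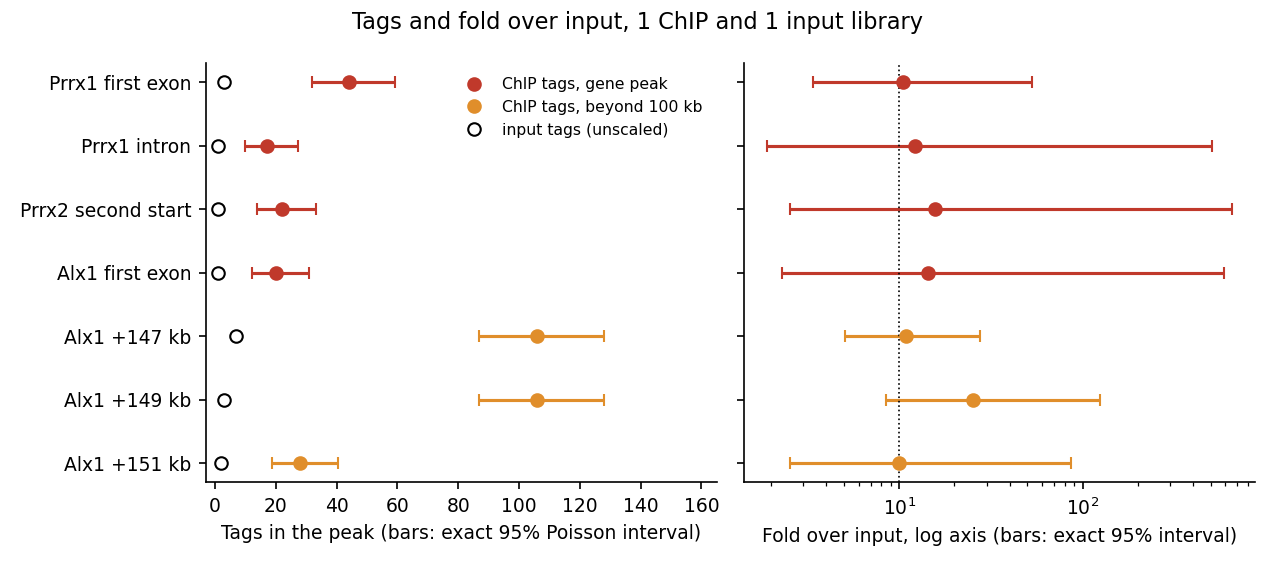
Tags per peak on the left (filled, ChIP tags with exact 95% Poisson intervals; open, input tags) and fold over input on the right (log axis, exact 95% intervals, dotted line at 10-fold), for the 4 peaks of the genes in red and the 3 Alx1 peaks beyond 100 kb in orange. The 2 larger distal Alx1 peaks, at 106 tags each, lie above all 4 gene peaks, while the fold intervals of all 7 overlap.

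A group of 3 peaks lay downstream of Alx1, beyond the limit of the rule, in sequence to which no other protein-coding gene had a nearer start. The group spanned 4.08 kb (chr10:102340678-102344759), 126 kb past the end of Alx1, and its centres were 141 to 144 kb from the nearest Alx1 start. Groups of this kind, with 2 other peak centres within 5 kb, held 0.698% of all peaks. The peak at 147 kb from the outermost start (chr10:102344005-102344759) had 106 ChIP tags (86.8 to 128) and 7 input tags, a fold of 10.85 (5.09 to 27.6), and scored 62. The peak at 149 kb (chr10:102342415-102343186) also had 106 ChIP tags, with 3 input tags and a fold of 25.31 (8.43 to 125), and scored 44.

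These 2 peaks held more ChIP tags than 93.3% of the list. They covered 754 and 771 bp, and per base they stood at 10.5 and 10.2 times the genome mean of the ChIP library. The peak at 149 kb was the 1 of the group, and of all 7 peaks, that would stay above 10-fold with 1 more input tag, at 19-fold. The third peak, at 151 kb (chr10:102340678-102341178), was weaker, with 28 tags (18.6 to 40.5) against 2 and a score of 26. With these peaks counted, Alx1 had 4 peaks in place of 1 and its best score was 62 in place of 23.

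**Figure D3:**
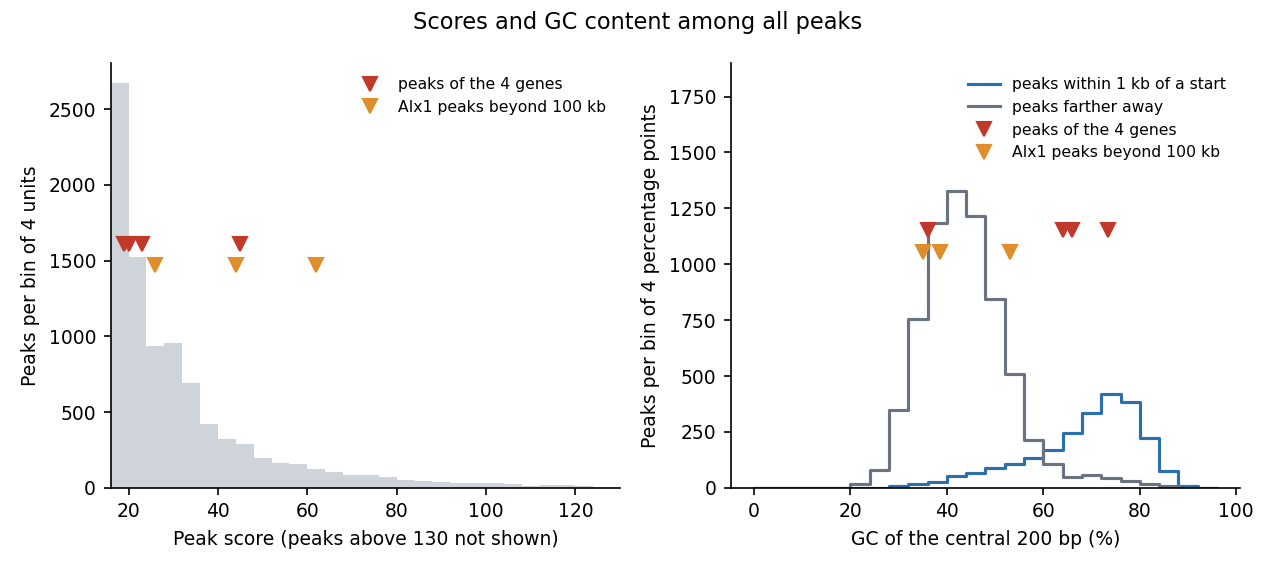
Left, number of peaks by score, in bins of 4 units, with triangles at the scores of the 4 gene peaks (red) and the 3 distal Alx1 peaks (orange); right, number of peaks by GC content of the central 200 bp, for peaks within 1 kb of a start and farther away. Of the gene peaks 3 have scores of 19 to 23 and 1 has 45, and the 3 within 1 kb of a start have a GC content of 64 to 73.5%.

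The 3 peaks within 1 kb of an annotated start of their gene were GC-rich and held no forkhead word. The Prrx1 peak among them, centred 984 bp from the nearest start, overlapped no annotated start. GC content in the central 200 bp was 64% at Prrx1, 73.5% at Prrx2 and 66% at Alx1, beside a median of 71% for the 2357 peaks within 1 kb of any start. No forkhead word was present anywhere in these 3 peaks. Forkhead words were present in the central 200 bp of 9.89% of peaks within 1 kb of a start and in 51.5% of peaks farther away. The GC-box core CCGCCC was present in all 3 centres, once at Prrx1 and Alx1 and at 2 places at Prrx2, against 54.6% of peaks within 1 kb of a start. The Prrx2 centre also held GCCNNNGGC, the core of AP-2 sites, at 2 places, against 31.7% of such peaks with at least 1. Both words are short and GC-rich, and the part of GC content in these counts was not tested.

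The intronic Prrx1 peak, which at 1.02 kb from a start fell just outside the 1 kb distance, had a different sequence. Its GC content was 36% and it held 4 forkhead words, 1 of them, ATAAACA at chr1:165218380-165218386, in the central 200 bp. At least 4 words were found in 6.67% of all peaks over their whole width. Of the 4 words 2 were ATAAATA, present in 8.51% of all peak centres and 7.63% of windows 2000 bp away. The other 2 were ATAAACA, at 19.7% and 5.5%. Forkhead words are AT-rich and the 6.67% covers peaks of every GC content, so the part of GC content was not tested. The sequence ACAAACA, a weaker forkhead match, lay 21 bp from the centre, and GTAAACA was absent. ACAAACA was also present in the Prrx2 peak, 184 bp from the centre, and in 21.6% of all peaks over their whole width. Forkhead words in the central 200 bp were therefore present in 1 of the 4 peaks, against 40.8% of all 9165 peaks, and GTAAACA in none of the 4, against 15.3%. The window of equal width 2000 bp away, towards lower coordinates whatever the gene's strand, also held a forkhead word at 1 of the 4 peaks and at 18.2% of all peaks.

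Of the distal Alx1 peaks, the 2 larger ones held forkhead words at their centres. In the peak at 149 kb, GTAAACA lay 20 bp from the centre on the minus strand (chr10:102342777-102342783). The peak at 147 kb held 3 words on the minus strand, with ATAAACA 4 bp from its centre (chr10:102344375-102344381) and GTAAACA 124 bp away. At least 3 words were found in 15.3% of all peaks over their whole width. The same peak held the RUNX core TGTGGTTT at 2 places, 1 of them 15 bp from the centre. At least 2 matches to TGTGGTTA or TGTGGTTT were found in 0.546% of all peaks over their whole width. The peak at 147 kb was 754 bp wide, where 65.4% of all peaks were 500 bp, so both shares compare unequal widths. RUNX was also 1 of many words searched, and the same peak held CCAAT, the NF-Y core, at 3 places. The weaker peak at 151 kb held no forkhead word.

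**Figure D4:**
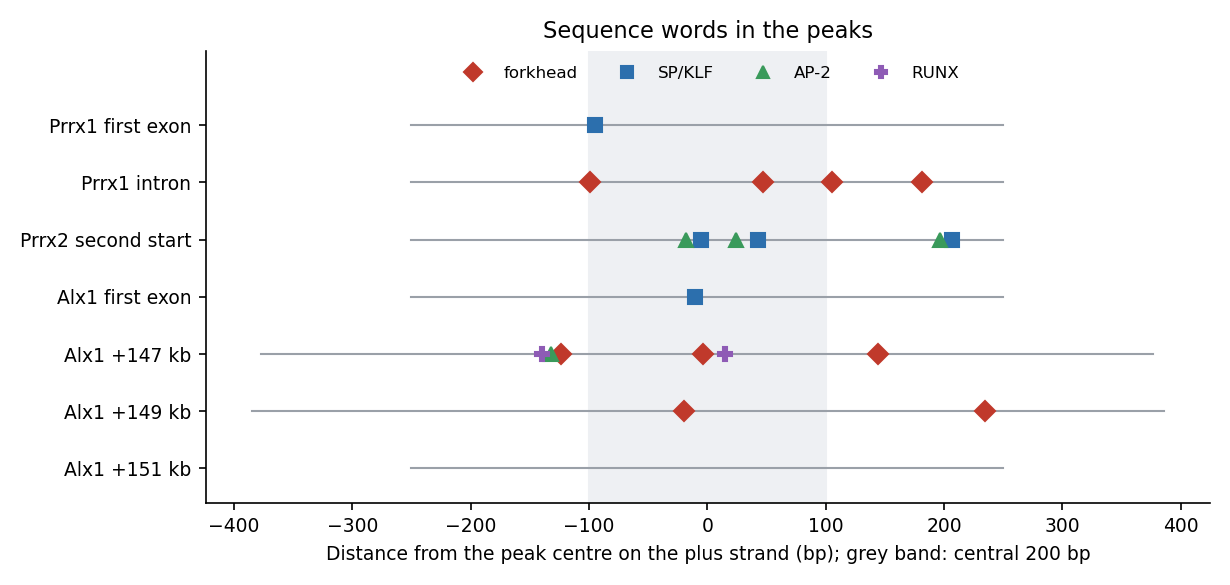
Positions of sequence words in the 7 peaks (rows), in bp from the peak centre on the plus strand, with peak extent as a line and the central 200 bp in grey; diamonds are forkhead words, squares CCGCCC, triangles GCCNNNGGC and crosses the RUNX core. Forkhead words appear in the intronic Prrx1 peak and the 2 larger distal Alx1 peaks, and CCGCCC in the 3 peaks within 1 kb of a start.

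Longer words of the paired class were also searched in these 7 peaks, while the TAAT core alone was not counted. TAATTA occurred in none of the 7 over their whole width, against 15.1% of all peaks. A TAAT followed 3 bases later by ATTA, the spacing bound by paired-class dimers, also occurred in none, against 1.12% of all peaks. For both words, 7 peaks are too few to read the absence.

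Other peaks near Prrx1 belonged to its neighbours by the rule. The 1 at chr1:165289010-165289636, in intergenic sequence 45.5 kb upstream of Prrx1, was assigned to Gorab, which encodes a golgin, because the Gorab start was 1.03 kb nearer. It had 67 ChIP tags and 4 input tags, a fold of 12 (4.47 to 45.3), and scored 64, above either peak of Prrx1. Its central 200 bp, printed above, held 4 forkhead words, GTAAACA among them, and at least 4 were found in 0.807% of all peaks. That was the highest such count among the peaks within 500 kb of the 4 genes. The GC content there was 32.5%, against a median of 46% for all peaks, and its part in the count was not tested. Farther off, 175 kb downstream of the Prrx1 start and past its end, a peak at chr1:165068070-165069102 held 228 tags against 11 input tags and scored 80. The nearest start to it was that of 4921528O07Rik, 52.8 kb away. Within 500 kb of their outermost starts, Prrx1 and Prrx2 each had 8 peaks, Alx1 had 5 and Alx4 had 4. The gene itself had the nearest start for 2 of these at Prrx1, 1 at Prrx2, 4 at Alx1 and 0 at Alx4. These window counts have no genome-wide value beside them.

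Other paired-class homeobox genes had peaks about as often as genes in general. Of 28 such genes, 7 had a peak by the same rule (25%, against the 23.9% of all genes), and 21 had none. Shox2, a factor of the anterior palate, had 4 peaks with 311 ChIP tags in all and a best score of 75, which exceeded every peak of the 4 genes. Pitx1, which acts in jaw, pituitary and hindlimb development, had 1 peak with 29 ChIP tags and a score of 19. Pitx3 and Rax had 1 peak each, with scores of 19 and 18, and the Pitx3 peak lay nearer to the start of Elovl3. Among the genes without a peak were Pax3, Pax7, Gsc, Otx1, Otx2 and Uncx.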

How the data were processed

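ChIP-seq of palatal shelves was analysed from 1 deposited peak list. Reads were aligned to mm9, with Bowtie 1.0.0, SAMtools 0.1.19 and HOMER named, per the submitters' processing notes. Per the file headers, HOMER findPeaks called peaks in its histone style on the ChIP library against the input, with a fragment length of 112 bp, at most 1 tag per position, a tag threshold of 17 and a 10-fold excess over input and over the surrounding 10000 bp. The deposited signal was ChIP tags scaled to 10000000 tags, per the file headers, and was scaled back to whole tags (each within 0.134 of a whole number). Input tags were read from the same list, where the authors write 0.5 for none. The deposited score, fold (a ratio of ChIP tags scaled to input depth over input tags) and p-value are the authors' own and were used to describe and rank peaks. The genome mean used the headers' genome size of 2000000000 bp.

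Peak centres were assigned with GENCODE vM1 genes, counted by symbol, on NCBIM37, the assembly of mm9, using Python 3.11.15. A gene's surroundings were the positions nearest to its starts within 100 kb plus the gene. Words were searched on both strands, and a word counted in the central 200 bp lay wholly inside them. Fold intervals are conditional on ChIP and input tags (exact binomial, scipy 1.17.1). They and the input densities use the estimated input total. Assignment, word search and intervals were checked on made-up data. RefSeq promoters (GRCm38.p6) matched 2 of the 4 symbols, Prrx1 and Prrx2. Of the 28 other paired-class genes, 1 (Drgx) matched through an older symbol. The 4 genes, all their peaks, neighbours in which or nearer to which a peak lay, and the listed paired-class genes with a peak were named by rule, except that some of the latter are counted but not reported here by name; paired-class genes without one and genes in the stretch around Alx4 were named after their values were seen. Genes and lists were chosen with earlier results of these data known.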

Additional observations from a re-analysis of the deposited data

How the results depend on the processing

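Of 68 alternatives over 8 values, 48 were counted as the same, meaning within 1.5 times for numbers of genes and peaks, identical for the median score, and within the exact 95% interval of the share (0.631 to 80.6%). Many of the 48 could hardly have come out otherwise, so this total does not measure stability. The 2 filters on peak strength, by score and by fold, moved 7 and 6 of the 8 values. Assignment within 10 kb, starts of every gene type, any overlap with the gene and the outermost start alone changed none of the values. The centres of all 4 peaks lie inside their genes, so none of these settings could have removed one. With only the higher-scoring 1 in 2 of all peaks, 1 gene and 1 peak remained, the first-exon peak of Prrx1, with a median score of 45 and a forkhead share of 0%. With peaks of at least 15-fold, 1 gene and 1 peak remained, that of Prrx2, with a median score of 20 and a share of 0%. With no distance limit, and with a limit of 150 kb chosen after seeing the data, there were 7 peaks, a median score of 26 and a share of 42.9%. With GTAAACA in place of the 4 forkhead words the share was 0%. Alx4 had 0 peaks under each of the 8 alternatives run for it, though those that only remove peaks or shorten the distance could not have given it any. No paired analysis was possible because there was 1 library of each kind. The folds of 3 of the 4 peaks rest on 1 input tag.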
